A study of Xenopus tropicalis with 21 samples.

Results

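The 9 genes described here encode the sensors and transcription factors that adjust sterol metabolism to the sterol content of a cell, together with proteins that bring sterol into it and move it within it. They are srebf1, srebf2, scap, insig1, insig2, ldlr, stard4, npc1 and mylip. They were chosen by name, as the rows of the authors' deposited tables whose gene column holds one of these symbols, and each symbol matched 1 of the 20288 rows. Liver RNA came from mature female Xenopus tropicalis, the tropical clawed frog, in 4 groups: 6 F1 BaP frogs, 5 F1 control frogs, 5 F2 BaP frogs and 5 F2 control frogs. BaP is benzo[a]pyrene, a polycyclic aromatic hydrocarbon. In the BaP groups only the F0 ancestors had lived in it, at 50 ng/L from tadpole to adult. The F1 and F2 frogs of every group had not lived in it themselves, so "BaP" names a lineage. Its F1 frogs are the offspring of frogs that had, and its F2 frogs are 1 generation further away. How many families stand behind each group is not given in the sources used here. The study asked which liver genes differ in the daughters and granddaughters of exposed frogs, each generation against its own controls.

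Roles below are those known from mammalian cells, given as background. The sterol regulatory element-binding proteins (SREBPs), made from srebf1 and srebf2, are transcription factors held in the membrane of the endoplasmic reticulum. The escort protein made from scap carries them to the Golgi, where proteases release the active part, and the anchor proteins made from insig1 and insig2 keep SCAP in the endoplasmic reticulum when sterol is plentiful. Active SREBP-2 switches on the genes of cholesterol synthesis and the LDL receptor gene, so liver can make or take up cholesterol as it runs short. This control acts largely on the protein, which RNA levels do not report.

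Values are group FPKM, a read level scaled to transcript length and to sequencing depth, from the authors' deposited tables. Cuffdiff gave 1 value per group from all its libraries, so there is no value per frog and no SD, and library depth is unknown. The authors' q is their p adjusted over all tested genes, and a gene was called at q under 0.05. How their fit modelled the spread between frogs is not given in the sources used here. The 95% intervals were derived from the authors' log2 fold change and p. The samples carried liver markers: all 14 tested hepatocyte markers in F1 and all 13 in F2 reached 1 FPKM in both groups of their generation. Summed over the list, these markers had 15388 FPKM in F1 BaP and 12662 in F1 control livers, and 12132 in F2 BaP and 14828 in F2 control livers, without alb, c3 and vtga2, which the tables mark as having too much data in both generations, and in F2 also without tf. Skeletal muscle markers, 15 rows in all, summed to 13.0 FPKM in F1 BaP and 26.2 in F1 control livers, and to 12.4 in F2 BaP and 18.6 in F2 control livers. Only 2 of these muscle rows in F1 and 3 in F2 reached 1 FPKM in both groups of their generation. In F1, casq1 was listed at 0 in both groups, and tnni2 and tnnc2 in BaP livers. Exocrine pancreas markers, 23 rows, summed to 711 FPKM in F1 BaP and 625 in F1 control livers, and to 349 in F2 BaP and 337 in F2 control livers. The pancreas sums rest on few rows, since only 4 of the 23 in F1 and 3 in F2 reached 1 FPKM in both groups. The zymogen and lipase genes prss2, pnliprp1 and pnlip were listed at 0 in all 4 groups. In F1, cela1.1, cela1.5, cela1.6, ctrb1, ctrb2 and cpb1 were at 0 in control livers only, and pnliprp2 in BaP livers only. In F2, cela1.1, cela1.5, cela1.6 and pnliprp2 were at 0 in control livers only, and ctrb1 in both groups. Of 13 tested pancreas markers in F1, 11 had a log2 fold change above 0. In F2, 6 of 8 tested pancreas markers lay above 0. Among all tested genes with a finite value, 53.2% in F1 and 45.8% in F2 lay above 0. Over the tested pancreas markers with a finite value, the median log2 fold change was 3.40 in F1 and 1.33 in F2. Cuffdiff called 3 of 13 tested pancreas markers higher in F1 BaP livers and 0 of 8 in F2. It called 3 of 5 tested muscle markers lower in F1 BaP livers and 1 of 5 lower in F2 BaP livers. Among all tested genes, 0.612% were called higher and 1.05% lower in F1, and 0.793% higher and 0.531% lower in F2. Hepatocyte markers had a log2 fold change above 0 for 11 of 14 tested in F1 and 2 of 13 in F2, and 0 were called. Of 12 tested erythrocyte markers, all had a log2 fold change above 0 in F1 and 1 was called higher. Their list summed to 808 FPKM in F1 BaP and 504 in F1 control livers. In F2 the sums were 1205 in BaP and 1297 in control livers, and 0 were called. These sums leave out the globin genes hbg1 and hba1, marked as having too much data in both generations. Of 13 tested leukocyte and macrophage markers, 11 in F1 and 9 in F2 had a log2 fold change above 0, and 0 were called. The 1 pigment cell marker tested in F2 was called lower in BaP livers. The part of such cells and tissue in the values below was not tested.

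No member was called in either generation. In F1 livers 0 of 7 tested members had q under 0.05 by Cuffdiff, against 1.67% of all tested genes, and 1 had an unadjusted p under 0.05, against 8.91% of all tested genes. In F2 livers 0 of 8 tested members were called, against 1.32% of all tested genes, and 1 had an unadjusted p under 0.05, against 8.9% of all tested genes. A count of 0 in a set this small is near these background shares. In F1 the log2 fold change (BaP over control) was below 0 for 6 of 7 tested members in the authors' deposited table, with a median of -0.41, where the median of all tested genes was 0.02. Of all tested F1 genes with a finite value, 46.8% were below 0. In F2 the log2 fold change was above 0 for 5 of 8 tested members in the authors' deposited table, with a median of 0.18, where the median of all tested genes was -0.03. Of all tested F2 genes with a finite value, 45.8% were above 0. In whole liver, fewer cells of a type and less RNA per cell cannot be told apart.

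**Figure D1:**
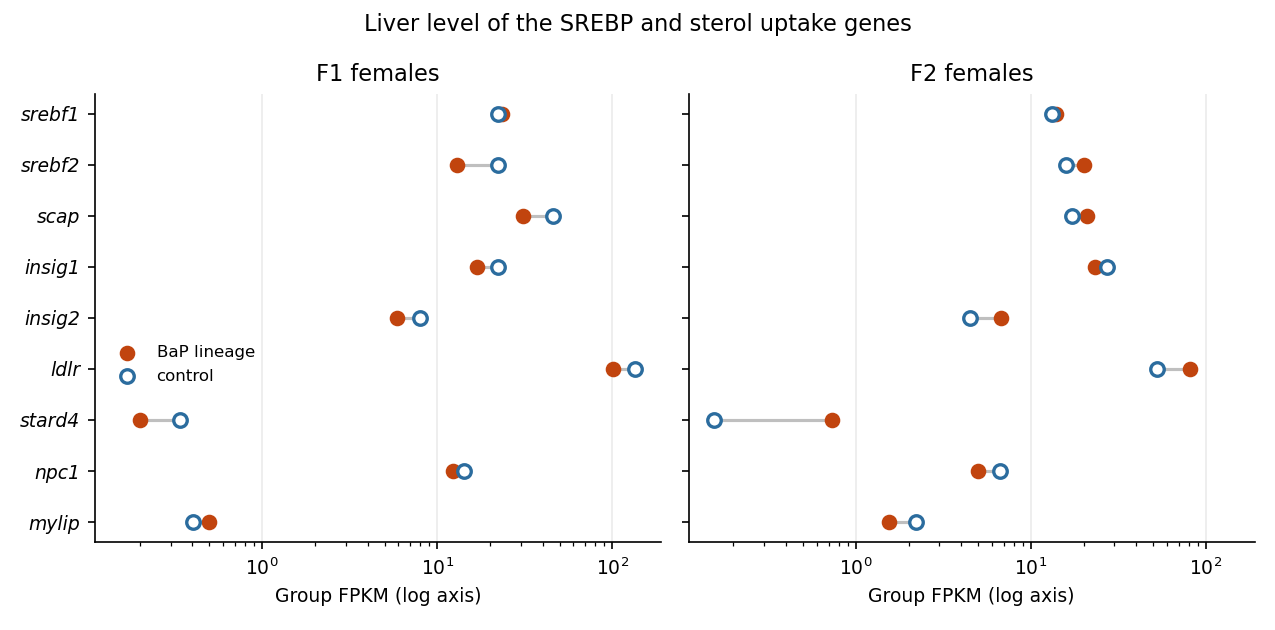
Group FPKM (log axis) of the 9 genes in F1 (left) and F2 (right) livers, filled for the BaP lineage and open for controls, from the authors' tables. The LDL receptor gene ldlr is highest in every group and stard4 lowest, and the members span 0.202 to 101.5 FPKM in F1 BaP livers and 0.342 to 135.3 in F1 control livers.

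Levels of the members differed widely, on a scale already corrected for transcript length. The uptake receptor gene ldlr led in every group, and stard4 came last. In F1 BaP livers the order from high to low was ldlr, scap, srebf1, insig1, srebf2, npc1, insig2, mylip and stard4. In F1 control livers srebf2, srebf1 and insig1 stood together at 22.4, 22.4 and 22.2 FPKM, behind ldlr and scap. In F2 control livers insig1 came second, with 27.0 FPKM, and scap, srebf2 and srebf1 followed within 13.3 to 17.1 FPKM. These neighbours carry no spread between frogs, so their order was not tested.

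Of the transcription factor genes, srebf1 (chromosome 9, 15371966 to 15393817) encodes the SREBP-1 forms, which in mammalian liver mainly drive fatty acid synthesis. It had 23.4 FPKM in F1 BaP livers and 22.4 in F1 control livers, and 13.9 in F2 BaP livers and 13.3 in F2 control livers. Its log2 fold change was 0.07 in both the authors' deposited tables (q = 0.9995 in F1 and 0.997 in F2), the smallest of any tested member in both. With the error taken from the authors' p, the intervals ran from -0.56 to 0.70 in F1 and from -0.51 to 0.65 in F2. A change of up to about 1.6-fold is within these. With the error taken from their test statistic they were wider, from -1.46 to 1.59 in F1 and from -1.24 to 1.38 in F2. RefSeq lists 4 transcript models of srebf1, and the tables hold 1 value for the gene, so its SREBP-1a and SREBP-1c forms cannot be told apart.

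The srebf2 gene (chromosome 4, 120125694 to 120164612) encodes SREBP-2, the form that drives cholesterol synthesis and uptake, and in mammals is a target of its own product. Its level was 13.0 FPKM in F1 BaP livers and 22.4 in F1 control livers, or 58.2% of control. That gave -0.78 as a log2 fold change in the authors' deposited table, the furthest from 0 of the tested members in F1, with an unadjusted p of 0.0174 and q = 0.328, which is not a call. The interval ran from -1.43 to -0.14 with the error taken from the authors' p, and from -2.21 to 0.64 with it taken from their test statistic. Of all tested F1 genes, 5.29% had a smaller p. In F2 the level was 20.2 FPKM in BaP livers and 15.8 in control livers, with 0.35 as a log2 fold change in the authors' deposited table (q = 0.864, interval -0.20 to 0.90). As a ratio of levels, srebf2 over srebf1 was 0.556 in F1 BaP livers, against equal levels of 22.4 FPKM in F1 control livers, and 1.45 in F2 BaP and 1.19 in F2 control livers. The ratio was thus below its control in F1 and above it in F2, with no replicate check on either.

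The escort gene scap (chromosome 6, 6937361 to 6979773) had values on the same sides of 0 as srebf2, neither called. It had 31.0 FPKM in F1 BaP and 46.0 in F1 control livers, -0.57 as a log2 fold change in the authors' deposited table (q = 0.688). In F2 BaP livers it had 20.9 FPKM, against 17.1 in F2 control livers, 0.29 as a log2 fold change in the authors' deposited table (q = 0.931). Both intervals include 0, from -1.22 to 0.08 in F1 and from -0.27 to 0.84 in F2.

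The anchor genes insig1 and insig2 differ in how mammals use them: insig1 is itself switched on by SREBPs and serves as a feedback readout, while in rodents insig2 has a liver form repressed by insulin. In F1, insig1 (chromosome 6, 16635760 to 16649463) had 16.9 FPKM in BaP livers and 22.2 in control livers (log2 fold change -0.39 in the authors' deposited table, q = 0.972). In F2 it had 23.2 FPKM in BaP livers and 27.0 in control livers (log2 fold change -0.22 in the authors' deposited table, q = 0.981). It was the only regulator gene of the 5 with a value below 0 in both generations, neither called. Its lower bounds, -1.05 in F1 and -0.97 in F2, leave room for a fall to about 0.484 of control in F1 and 0.512 in F2. With the error from the test statistic the lower bounds were further down, at -1.89 in F1 and -1.91 in F2.

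For insig2 (chromosome 9, 90823806 to 90833629) the level was 5.86 FPKM in F1 BaP livers and 7.94 in F1 control livers. The log2 fold change was -0.44 in the authors' deposited table (q = 0.852). In F2 BaP livers it was 6.78 FPKM, against 4.47 in F2 control livers, with 0.60 as a log2 fold change in the authors' deposited table. Its unadjusted p there was 0.0162 and q = 0.331, the smallest q of the members in F2, and 4.87% of all tested F2 genes had a smaller p. There the interval ran from 0.11 to 1.09 with the error from p, and from -0.53 to 1.74 with the error from the test statistic. The ratio of insig1 to insig2 was 2.89 in F1 BaP and 2.79 in F1 control livers, and 3.41 in F2 BaP and 6.05 in F2 control livers.

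**Figure D2:**
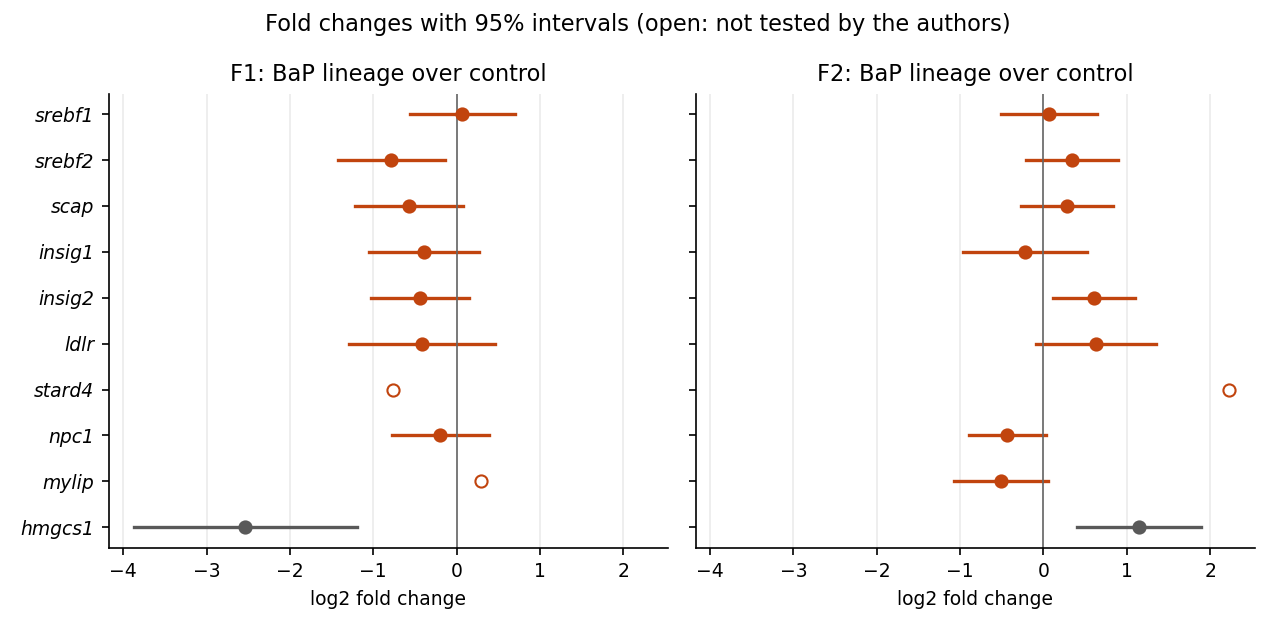
Log2 fold change (BaP over control) of the 9 genes in F1 and F2, with the cholesterol synthesis gene hmgcs1 in grey for scale; lines are 95% intervals derived from the authors' p, and open points were not tested by the authors. In F1 the srebf2 interval lies below 0 and in F2 the insig2 interval lies above 0, without an adjusted call, and with errors from the authors' test statistic both include 0; hmgcs1 stands at -2.53 in F1 and 1.15 in F2.

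Of the uptake genes, ldlr (chromosome 3, 138972462 to 138986944) encodes the receptor that clears cholesterol-rich lipoproteins from blood and is a classical SREBP-2 target. It had 101.5 FPKM in F1 BaP livers and 135.3 in F1 control livers, which is 75.0% of control. The log2 fold change was -0.41 in the authors' deposited table (q = 0.9995, interval -1.29 to 0.46). In F2 it had 81.0 FPKM in BaP livers and 52.5 in control livers, or 1.54-fold the control level. There the log2 fold change of 0.63 was the highest of the tested members in the authors' deposited table, with an unadjusted p of 0.0872 and q = 0.677. RefSeq places a long noncoding RNA gene, LOC116409824 (chromosome 3, 138969088 to 138973341), across one end of ldlr. The tables have 0 rows under that name, and whether reads were counted by strand is not given in the sources used here, so reads of that gene in the ldlr value cannot be told apart.

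The mylip gene (chromosome 6, 92587203 to 92606309) encodes the ubiquitin ligase that marks the LDL receptor for breakdown, and in mammals is switched on by the oxysterol receptor LXR. It was scarce in F1, at 0.498 FPKM in BaP livers and 0.405 in control livers, and was not tested there. In F2 it had 1.54 FPKM in BaP livers and 2.19 in control livers, and the log2 fold change was -0.51 in the authors' deposited table (unadjusted p of 0.0745, q = 0.637). In F2, then, the receptor gene and the gene for its ligase lay on opposite sides of 0, neither called. The level of ldlr over that of mylip was 204 in F1 BaP and 334 in F1 control livers, with mylip below 1 FPKM there, and 52.7 in F2 BaP and 23.9 in F2 control livers.

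Of the genes for transport within the cell, npc1 (chromosome 6, 109082364 to 109126608) encodes the lysosomal membrane protein that lets cholesterol from taken-up lipoproteins leave the lysosome. Its level was 12.4 FPKM in F1 BaP and 14.1 in F1 control livers, and 4.96 in F2 BaP and 6.70 in F2 control livers. Its log2 fold changes were -0.19 in F1 (q = 0.9995) and -0.43 in F2 (unadjusted p of 0.0670, q = 0.613) in the authors' deposited tables. With insig1 it was the other tested member below 0 in both generations. The level of ldlr over that of npc1 was 8.21 in F1 BaP and 9.57 in F1 control livers, and 16.3 in F2 BaP and 7.83 in F2 control livers.

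The stard4 gene (chromosome 1, 173331241 to 173343523) encodes a cytosolic sterol carrier and is an SREBP target in mouse liver. It was the scarcest member, and the authors tested it in neither generation. It had 0.202 FPKM in F1 BaP livers and 0.342 in F1 control livers. In F2 it had 0.729 FPKM in BaP livers and 0.155 in control livers. The log2 fold changes of -0.76 and 2.23 in the authors' deposited tables have no p, and with 1 added to each FPKM they become -0.16 and 0.58, so their size rests on the handling of values near 0.

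The sizes of change that were called were read from genes of like abundance. Among genes within 2-fold of the mean level of srebf2, 3107 were tested in F1 and 49 were called, and the smallest log2 change called, in either direction, was 1.02 in the authors' deposited table. In F2, 4497 genes lay within 2-fold of insig2, 55 were called, and the smallest log2 change called was 0.87 in the authors' deposited table. Over the levels of all tested members, the smallest log2 change called among such genes ranged from 1.02 to 1.17 in size in F1 and from 0.84 to 1.20 in F2. In the authors' deposited tables the values of tested members furthest from 0, -0.78 for F1 and 0.63 for F2, stayed under these sizes. The sizes called depend on the spread of the genes called and are no detection limit.

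**Figure D3:**
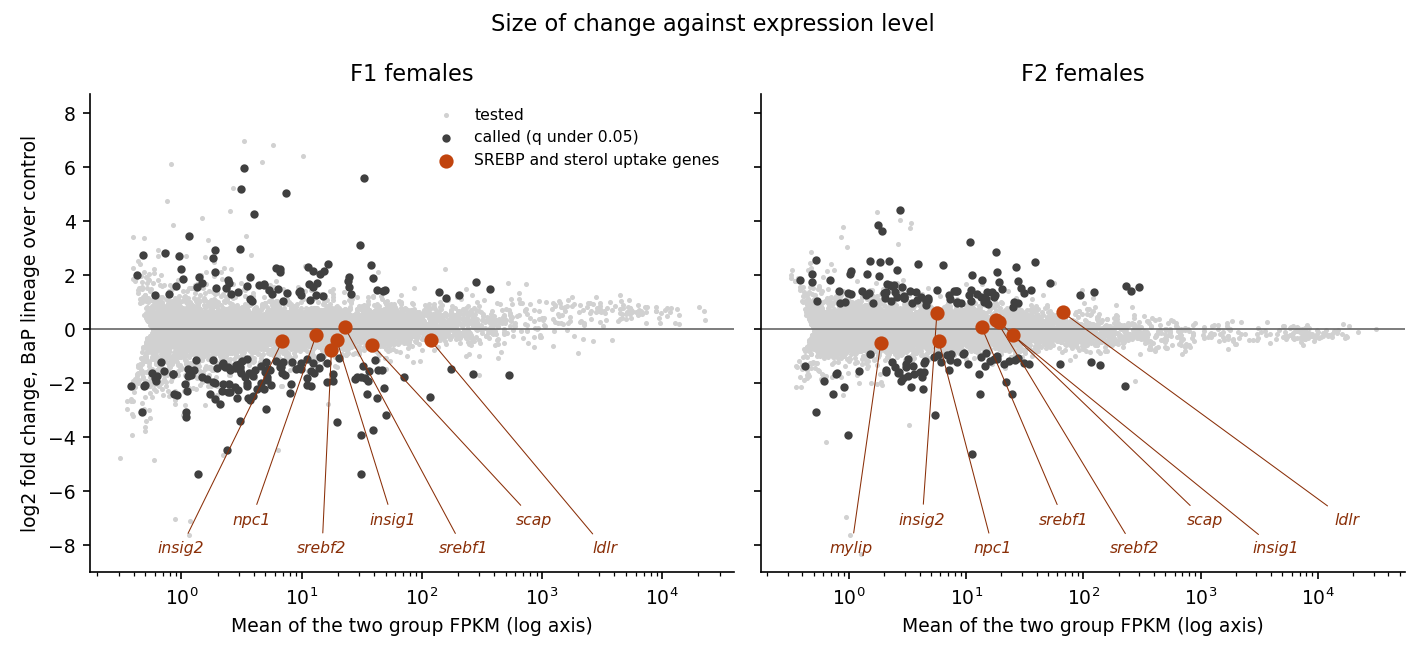
Log2 fold change (BaP over control) against the mean of the group FPKM (log axis) for all tested genes with a finite value, with called genes in black and the tested members labelled, in F1 (left) and F2 (right). The members lie within -0.78 to 0.07 in F1 and -0.51 to 0.63 in F2, and none was called.

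The changes in F2 and F1 were then compared with each other, over 11677 genes tested in both tables. The log2 fold change lay below 0 in F1 and above 0 in F2 for 4 of the 7 members tested in both (srebf2, scap, insig2 and ldlr), a pattern of signs that 24.2% of all genes tested in both showed. As the F2 change less the F1 change, the difference was 1.13 on the log2 scale for srebf2, with an interval of 0.28 to 1.98. It was 1.04 for insig2 (interval 0.27 to 1.81), 1.04 for ldlr (interval -0.09 to 2.17) and 0.85 for scap (interval 0.00 to 1.71). The unadjusted p was 0.00909 for srebf2, 0.00804 for insig2 and 0.0489 for scap. Adjusted over all genes, the p was 0.265 for srebf2, 0.248 for insig2, 0.547 for scap and 0.630 for ldlr (normal test of the difference built on the authors' p, Benjamini-Hochberg), and 0 of 7 members passed, against 0.959% of all genes. For 3 members the unadjusted p of the difference was under 0.05, against 9.03% of all genes. For srebf1, insig1 and npc1 the difference was 0.00, 0.17 and -0.24, with intervals from -0.85 to 0.86, from -0.83 to 1.16 and from -0.98 to 0.50.

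**Figure D4:**
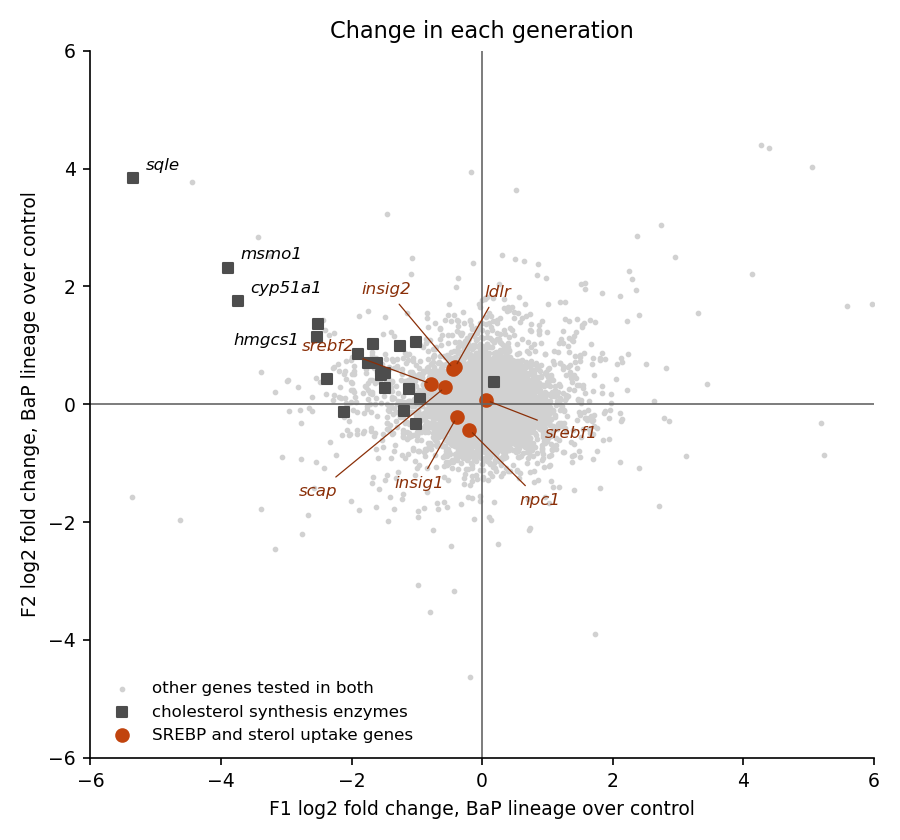
Log2 fold change (BaP over control) in F1 (x axis) and F2 (y axis) for genes tested in both, with cholesterol synthesis enzymes as squares and the 7 members tested in both as labelled points; 7 other genes lie outside the axes. Of the enzymes, 17 of 21 lie in the upper left quadrant, against 24.2% of all genes tested in both. They reach as far as sqle, at -5.34 and 3.84, whose ratios rest on values near 0. The members srebf2, scap, insig2 and ldlr lie in the same quadrant within 1 log2 unit of 0.

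The enzymes of cholesterol synthesis are the best known targets of SREBP-2, and their values in the same livers give the scale. Cuffdiff called 15 of 21 tested enzymes lower in F1 BaP livers, against 1.05% of all tested genes called lower, with a median log2 fold change of -1.61. It called 6 of 21 higher in F2 BaP livers, against 0.793% of all tested genes called higher, with a median of 0.69. This list was written with those calls known. The synthase gene hmgcs1, at an early step of the pathway, had 12.4 FPKM in F1 BaP and 71.5 in F1 control livers (log2 fold change -2.53, q = 0.0191 in the authors' deposited table). In F2 it had 36.6 FPKM in BaP and 16.5 in control livers, and the F2 value of 1.15 was not called in the authors' deposited table (q = 0.125). In F1 the enzymes ran from -5.34 to 0.18 on the log2 scale and the tested members from -0.78 to 0.07. In F2 the enzymes ran from -0.34 to 3.84 and the tested members from -0.51 to 0.63. In F1, 20 of 21 enzymes lay below every tested member, and in F2, 11 of 21 lay above every tested member. The genes insig1 and ldlr, SREBP targets in mammals, had -0.39 and -0.41 in the F1 livers where hmgcs1 had -2.53 in the authors' deposited table. The other members described above as SREBP targets, srebf2 and stard4, had -0.78 and -0.76 there. In F2, where hmgcs1 had 1.15, the values were -0.22 for insig1, 0.63 for ldlr, 0.35 for srebf2 and 2.23 for stard4. Of these members, stard4 was under 1 FPKM in every group and was not tested. The difference between genes was not tested, since the same frogs stand behind each. The F2 and F1 changes differed for 14 of 21 enzymes at an adjusted p under 0.05, against 0.959% of all genes. Among the 14 were hmgcs1, msmo1, cyp51a1, dhcr7, hsd17b7 and mvd. For hmgcs1 the difference was 3.68 on the log2 scale (adjusted p = 0.00141) and for sqle it was 9.19 (adjusted p = 0.000282), by the normal test built on the p of the authors' Cuffdiff fits. The sqle ratios rest on values near 0: it had 0.0656 FPKM in F1 BaP and 2.66 in F1 control livers, and 3.32 in F2 BaP and 0.232 in F2 control livers. In F1 the Cuffdiff p of msmo1, cyp51a1, dhcr7 and mvd was 5e-05, the smallest given, so their errors from p rest on that limit. With errors from the authors' test statistic in place of their p, only msmo1 of the enzymes passed.

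Next came the genes that act on the SREBPs themselves. Of 32 tested genes for SREBP cleavage, exit from the endoplasmic reticulum and turnover, 1 was called lower in F1, against 1.05% of all tested genes called lower, and 0 were called in F2, against 1.32% called in either direction (Cuffdiff; unadjusted p was under 0.05 for 3 and 1, against 8.91% and 8.9%). These counts are near the background. The medians were 0.11 and -0.11 on the log2 scale. The called gene, paqr3, encodes a Golgi protein that holds SCAP and SREBP there in mammalian cells. It had 1.07 FPKM in F1 BaP livers and 2.87 in F1 control livers (log2 fold change -1.42 in the authors' deposited table, q = 0.0480). In F2 its log2 fold change was -0.44 in the authors' deposited table (q = 0.862).

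The protease genes mbtps1 and mbtps2, whose products cut SREBP in the Golgi, had 0.12 and 0.11 (F1) and -0.13 and -0.36 (F2) as log2 fold changes in the authors' deposited tables. For amfr and rnf139, genes of ubiquitin ligases of the endoplasmic reticulum, they were 0.11 and -0.01 (F1) and -0.22 and -0.12 (F2) in the authors' deposited tables. Of these 4 genes, none had q under 0.05. Among DNA-binding partners and coactivators of SREBPs, such as the NF-Y and Sp1 genes, Cuffdiff called 0 of 12 in F1 and 0 of 13 in F2. In either generation 0 had an unadjusted p under 0.05, against 8.91% (F1) and 8.9% (F2) of all tested genes. The shares of all tested genes called, 1.67% in F1 and 1.32% in F2, give less than 1 call in a list of this length.

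**Figure D5:**
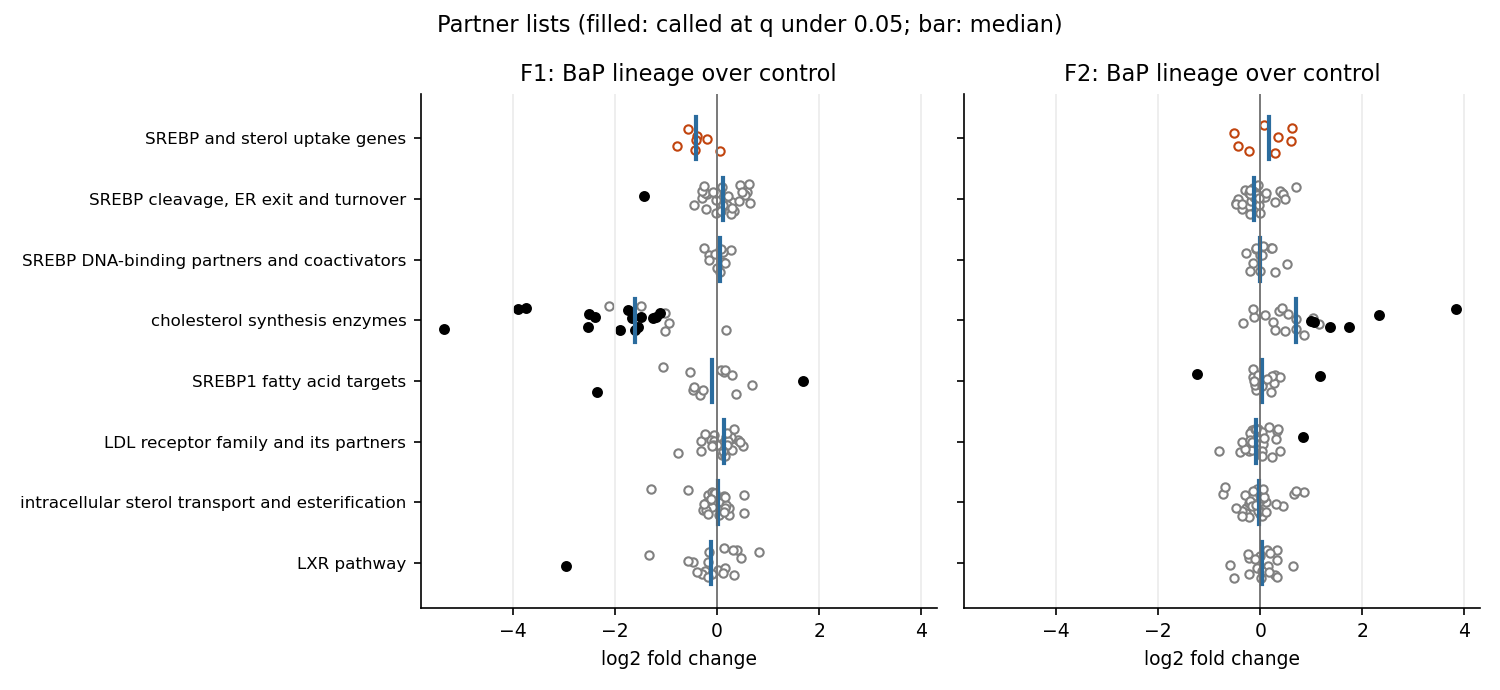
Log2 fold change (BaP over control) of every tested gene with a finite value in the 9-gene set and in 7 lists of related genes, in F1 (left) and F2 (right); filled points were called, and bars are list medians. Calls lie mainly in the cholesterol synthesis list, 15 of 21 in F1 and 6 of 21 in F2, and none in the 9-gene set.

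Around the LDL receptor, 0 of 27 tested genes of its family and partners were called by Cuffdiff in F1 and 1 of 28 in F2, against 1.67% and 1.32% of all tested genes. An unadjusted p under 0.05 was found for 0 in F1 and 2 in F2, against 8.91% and 8.9%. The calls are near the background. The called gene ccdc93 encodes a subunit of the endosomal complex that returns the LDL receptor to the cell surface. It had 32.5 FPKM in F2 BaP and 18.2 in F2 control livers (log2 fold change 0.84 in the authors' deposited table, q = 0.0437). In F1 its log2 fold change was -0.09 in the authors' deposited table (q = 0.9995).

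The related receptor genes lrp1 and vldlr had -0.31 and 0.28 (F1) and 0.40 and 0.17 (F2) as log2 fold changes in the authors' deposited tables. The gene of the HDL receptor, scarb1, had 0.09 (F1) and -0.39 (F2) as log2 fold changes in the authors' deposited tables. None of these 3 genes was called.

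For sterol transport within the cell and sterol esterification, Cuffdiff called 0 of 31 genes in F1 and 0 of 32 in F2, against 1.67% and 1.32% of all tested genes. An unadjusted p under 0.05 was found for 1 in F1 and 5 in F2, against 8.91% and 8.9%. The gene of the soluble partner of NPC1, npc2, had 0.53 (F1) and -0.35 (F2) as log2 fold changes in the authors' deposited tables. The gene of the lysosomal acid lipase that frees cholesterol from its esters, lipa, had 0.16 and -0.21 as log2 fold changes there, in F1 and F2 of the authors' deposited tables. The sterol importer gene npc1l1 had 1.54 FPKM in F2 BaP livers and 0.849 in F2 control livers, with 0.86 as a log2 fold change in the authors' deposited table (unadjusted p of 0.00770, q = 0.220).

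In the LXR pathway, which promotes sterol disposal, 1 of 20 tested genes was called lower in F1, against 1.05% of all tested genes, and 0 of 19 were called in F2, against 1.32% (Cuffdiff; unadjusted p was under 0.05 for 3 and 2, against 8.91% and 8.9%). The called gene was cyp7a1, whose enzyme limits the rate at which bile acids are made, with 1.14 FPKM in F1 BaP livers and 8.86 in F1 control livers (log2 fold change -2.96 in the authors' deposited table, q = 0.00654). In F2 cyp7a1 had 1.46 FPKM in BaP and 1.57 in control livers (log2 fold change -0.11 in the authors' deposited table, q = 0.997). Its F2 minus F1 difference was 2.85 (adjusted p = 0.0639, normal test built on the authors' p). The cholesterol exporter gene abca1 had -0.29 (F1) and 0.32 (F2) as log2 fold changes in the authors' deposited tables, neither called. The canalicular half-transporter gene abcg5 was under 0.5 FPKM in all 4 groups and was not tested. Of the 24 symbols listed for this pathway, 21 were found. The LXR gene nr1h3 was listed but matched no row, so it is not among the genes tested.

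Among 14 tested SREBP-1 fatty acid targets in F1, 1 was called higher and 1 lower, against 0.612% higher and 1.05% lower of all tested genes. Among 16 in F2, 1 was called higher and 1 lower, against 0.793% and 0.531%. The unadjusted Cuffdiff p was under 0.05 for 2 higher and 2 lower in F1, and for 1 higher and 1 lower in F2. Of all tested genes, 8.91% in F1 and 8.9% in F2 had such a p, in either direction. The acetyl-CoA synthetase gene acss2.2 had 2.66 FPKM in F1 BaP and 13.5 in F1 control livers, and 4.09 in F2 BaP and 1.82 in F2 control livers. Its log2 fold changes were -2.34 (q = 0.00654) and 1.17 (q = 0.0408) in the authors' deposited tables, and F2 minus F1 was 3.51 (adjusted p = 0.000282, the same test as above). That difference, too, was no longer past the threshold with errors from the test statistic. The desaturase gene scd had 17.5 FPKM in F1 BaP and 5.41 in F1 control livers (log2 fold change 1.69 in the authors' deposited table, q = 0.0320). In F2 scd had 148 FPKM in BaP and 126 in control livers (log2 fold change 0.23, q = 0.990, same source). The gene me1, which encodes malic enzyme, had -0.28 in F1 (q = 0.9995) and -1.24 in F2 (q = 0.00755, same source). The fatty acid synthase gene fasn had 0.29 (F1) and -0.13 (F2) as log2 fold changes in the authors' deposited tables, beside the 0.07 of srebf1 in both.

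Levels in the control groups can be set side by side across generations only with care, because the tables were normalized separately. In F1 control livers scap had 46.0 FPKM and in F2 control livers 17.1, above 90.5% and 81.7% of the tested genes of its table. For ldlr the control levels were 135.3 FPKM in F1 and 52.5 in F2, above 96.3% and 92.3% of tested genes. For npc1 they were 14.1 and 6.70 FPKM, and for mylip 0.405 and 2.19 FPKM. Only insig1 and mylip had a control FPKM in F2 above that in F1. The generations were not tested against each other.

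Of the 9 members, 4 lie on chromosome 6 (scap, insig1, mylip and npc1), a chromosome that holds 8.15% of all rows, and 2 on chromosome 9. On chromosome 6, 1.09% of tested genes were called in F1 and 1.18% in F2. Each SREBP gene holds a gene for the microRNA miR-33, which in mammals acts against cholesterol export. RefSeq names mir33a inside srebf1 (chromosome 9, 15390783 to 15390850) and mir33b inside srebf2 (chromosome 4, 120158470 to 120158538), the reverse of the human naming. The tables have 0 rows under either name, so only the host genes are described here. Positions are on assembly UCB_Xtro_10.0, counted from 1, and the ends of all 9 member rows were identical to those in RefSeq.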

How the data were processed

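Liver poly(A) libraries (75 bp reads, 15 mg of liver, TruSeq stranded kit, Illumina GAIIx, per the labels' protocols) came from 21 frogs. Per the submitters' processing notes, the tools were Cuffdiff 0.0.7, Cufflinks 0.0.7, HISAT2 and Trimmomatic 0.32.1, in an order and with settings not stated there, and the genome build is not stated either. The authors deposited, per the file headers, 2 Cuffdiff tables with 1 FPKM per group, the log2 fold change of BaP over control without a pseudocount, a test statistic (a score), and a p-value and q-value. No library values are held, so library depth is unknown and the authors' test was not repeated.

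The standard error of a fold change was its size over the normal quantile of the authors' p. The smallest Cuffdiff p was 5e-05 in both generations, and for genes at that value the error follows from the size of change alone. The F2 minus F1 difference was divided by the combined error, and p adjusted by Benjamini-Hochberg over 11677 genes, in Python 3.11.15 with SciPy 1.17.1. This step was tested on simulated data drawn with the same errors from p, so that test cannot check the errors themselves. The z of the authors' p was a median 2.29 times their test statistic, so errors from the statistic were tried as an alternative (for the members' intervals, chosen after seeing the data). Further settings tried were a 1.5-fold minimum, thresholds of 0.01 and 0.1 on q, recomputed q, 1 FPKM minimums, single symbols, centring, pseudocounts of 0.1 and 1, and rescaling.

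All 9 members are described, with related genes that were called (up to 4 per list and generation) or preset. The part of the rule naming genes with a like pattern applied to called members and named none. Members and lists were chosen with earlier results of these data known. Promoter and protein sequences were not analysed here. Of the genes so chosen, 4 are left out of the text and stay in every test and count.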

Additional observations from a re-analysis of the deposited data

Results flagged for a closer look

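No member met a rule for a closer look. Of the related genes named by rule, 8 had an F2 change that differed from the F1 change at an adjusted p of 0.00391 or less (normal test of the difference built on the authors' p, Benjamini-Hochberg over all genes). Their F2 minus F1 differences on the log2 scale were 9.19 for sqle, 6.22 for msmo1, 5.49 for cyp51a1, 3.68 for hmgcs1 and 3.51 for acss2.2. The sqle value rests on 0.0656 FPKM in F1 BaP and 0.232 FPKM in F2 control livers. The remaining values were 2.25 for hsd17b7, 2.04 for dhcr7 and 2.03 for mvd. The Cuffdiff p was at its smallest value, 5e-05, for msmo1, cyp51a1, dhcr7, mvd and acss2.2 in F1 and for msmo1 in F2. The errors taken from p rest on that limit there. With errors taken from the authors' test statistic, only msmo1 of the 8 passed (adjusted p = 0.0359). All of the 8 but hmgcs1 and sqle were named because their Cuffdiff p was small. The test of the difference is built on the same p, so their number is no separate support. Among all genes tested in both generations, 0.959% passed an adjusted p of 0.05 with errors from p.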

How the results depend on the processing

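No member was called in F1 or F2 under any of the 6 alternative call rules: q under 0.01, q under 0.1, a fold of at least 1.5, recomputed q, rows reaching 1 FPKM, and rows with a single symbol. The F2 minus F1 difference passed for 0 of 7 members under each of the alternatives run, with an adjusted p for srebf2 between 0.216 (tables centred) and 0.999999 (errors from the test statistic), and for insig2 between 0.195 and 0.999999. Errors from the test statistic left 1 gene, msmo1, past the threshold among all genes, against 112 with errors from p, and 1 of the enzymes against 14. Called partner genes numbered 19 in F1 (20 at q under 0.1) and 9 in F2. No member's log2 fold change switched sign under a pseudocount or centring. The pseudocount moved the scarce members most: with 1 added, stard4 had -0.16 in F1 and 0.58 in F2 (1.70 in F2 with 0.1 added), and mylip had 0.09 in F1 and -0.33 in F2. With errors from the test statistic, chosen after seeing the data, the interval of every tested member included 0. Leaving out single frogs was planned and not run, because the tables hold 1 value per group. No paired analysis was possible because the tables carry no library columns. Precision rests on the authors' test alone.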
